A study of Cricetulus griseus with 3 samples.

Results

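Heat shock chaperones of the cytosol and the mitochondrion were followed by the RNAs of 10 genes in microtubule preparations from Chinese hamster ovary (CHO) cells, an established line of Cricetulus griseus. The members were the transcripts whose deposited best human protein match was HSP90AA1, HSP90AB1, HSPA8, HSPH1, HSPA4, HSPB1, DNAJB1, DNAJA1, HSPD1 or HSPE1, and all 10 were found among 21607 transcripts. Where several transcripts shared a match, the one with most reads was kept. Genes are written here with the symbol of the human protein, since RefSeq gave a hamster symbol (Hsp90aa1, Hspa8 and Hsph1) for only 3 of the 10.

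Poly-A RNA was sequenced from 3 successive points of the division cycle, with 1 library each. Every culture was first held for 16 h in 2 mM thymidine, which stops DNA synthesis. Interphase microtubules were prepared from cells for which the labels give no further step. For mitotic microtubules, cells were freed of thymidine for 5 h, kept for 4 to 5 h in 0.1 ug/ml nocodazole, which blocks microtubule assembly, collected by shake-off and left in new medium for 15 min. Midbodies are the bundles of microtubules that still join daughter cells at the end of division, and the labels give them the mitotic procedure with 65 min in new medium. The question put by the comparisons is which RNAs set midbodies apart from the microtubules of dividing and interphase cells. RNA bound to these structures and RNA that was merely abundant in the cells cannot be told apart, nor can the structure and the length of the last incubation. In comparisons with interphase, the structure also cannot be told apart from the release, nocodazole and shake-off, which the labels give only for the other preparations. A lower level in a preparation cannot be split into fewer cells with the RNA and less RNA per cell.

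The libraries held 12672056 reads for interphase, 8059745 for mitotic microtubules and 5134865 for midbodies. Since each point has 1 library, differences have no replicate check and p-values are not given. Levels are RPKM, in which reads are divided by the transcript's length and the library's total. Folds between libraries are ratios of reads after division by library totals, with exact binomial 95% intervals in brackets that cover counting error only. Of 5 mesenchymal genes listed as marks of the line, VIM, LGALS1 and FN1 exceeded 1 RPKM, whereas the collagen genes COL1A1 and COL1A2 did not in any library. All 4 markers of leukocytes, endothelium, hepatocytes and epithelium stayed below 1 RPKM, the highest being 0.830. The summed level of 6 mitosis markers was 545 RPKM in interphase, 644 in mitotic and 921 in midbody preparations. The summed level of 5 S phase markers was 427, 281 and 321 RPKM in the same order. Single markers went against these sums: CCNB1 and PLK1 were lower in mitotic than in interphase preparations (62.8 against 108 and 90.3 against 128 RPKM), AURKB had 32.5 against 34.3 RPKM, and the S phase gene CCNE2 was higher (38.4 against 24.7 RPKM). KIF23 had 274 RPKM in midbodies against 109 in mitotic preparations and was the highest of the 6 in midbodies. The part of the marker differences in the chaperone values was not tested.

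Chaperones hold unfolded proteins until they reach their native state. HSPA8, the constitutive cytosolic Hsp70, binds short hydrophobic stretches in a cycle driven by ATP. J proteins such as DNAJB1 and DNAJA1 bring clients to it and start ATP hydrolysis, and Hsp110 proteins such as HSPH1 release the ADP. Clients like kinases and steroid receptors pass on to Hsp90. HSPD1 and its lid HSPE1 fold proteins in a closed chamber in the mitochondrial matrix. On heat or other protein stress, the transcription factor HSF1 raises many of these genes. Transcription of most genes is shut down while chromosomes are condensed and resumes as cells leave mitosis.

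As a group, the 10 chaperone RNAs had their lowest level in the mitotic library, with J proteins and HSPH1 furthest from it in the midbody library. Their reads made up 0.394% of the interphase library (0.390 to 0.397), 0.293% of the mitotic library (0.289 to 0.297) and 0.369% of the midbody library (0.364 to 0.374). Most of these reads came from the Hsp90 pair (0.167%, 0.156% and 0.189% in the same order) and HSPA8 (0.100%, 0.0541% and 0.0652%). The mitotic library was the lowest of the 3 for 8 members, all except HSPA4 and HSPE1, for which the midbody library was lowest. Some of these orders rest on differences within counting error. Mitotic to interphase ratios were 0.986 for HSP90AA1 (0.955 to 1.02) and 0.865 for HSPB1 (0.697 to 1.07). Midbody and mitotic levels of HSPA4 and HSPE1 were likewise within counting error. Under 2 other scalings HSP90AA1 was no longer below interphase in the mitotic library. Across the 13325 transcripts at 1 RPKM or more in any library, the mitotic library was lowest for 29.7%, or 31.9% of those at 10 RPKM or more in any, and the midbody library for 30.4%. The highest level was in interphase for 6 members, in the mitotic library for 0 and in midbodies for 4, where the shares of all transcripts were 48.9%, 28.7% and 22.4%. For 6 members, HSP90AB1, HSPA8, HSPH1, DNAJB1, DNAJA1 and HSPD1, counting intervals placed the mitotic level below interphase and the midbody level above mitotic. The same held for 11.7% of the 13325 transcripts and for 13.9% of those at 10 RPKM or more, many of which had fewer reads and wider intervals. Deep coverage let small differences count, as for HSP90AB1, with 0.895 of the interphase level in the mitotic library, and HSPD1, with midbodies at 1.08-fold the mitotic level. The count of 6 is therefore not directly comparable to these shares. This order was chosen for description after the values were seen, and both differences use the mitotic library, so a low value there enters both.

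**Figure D1:**
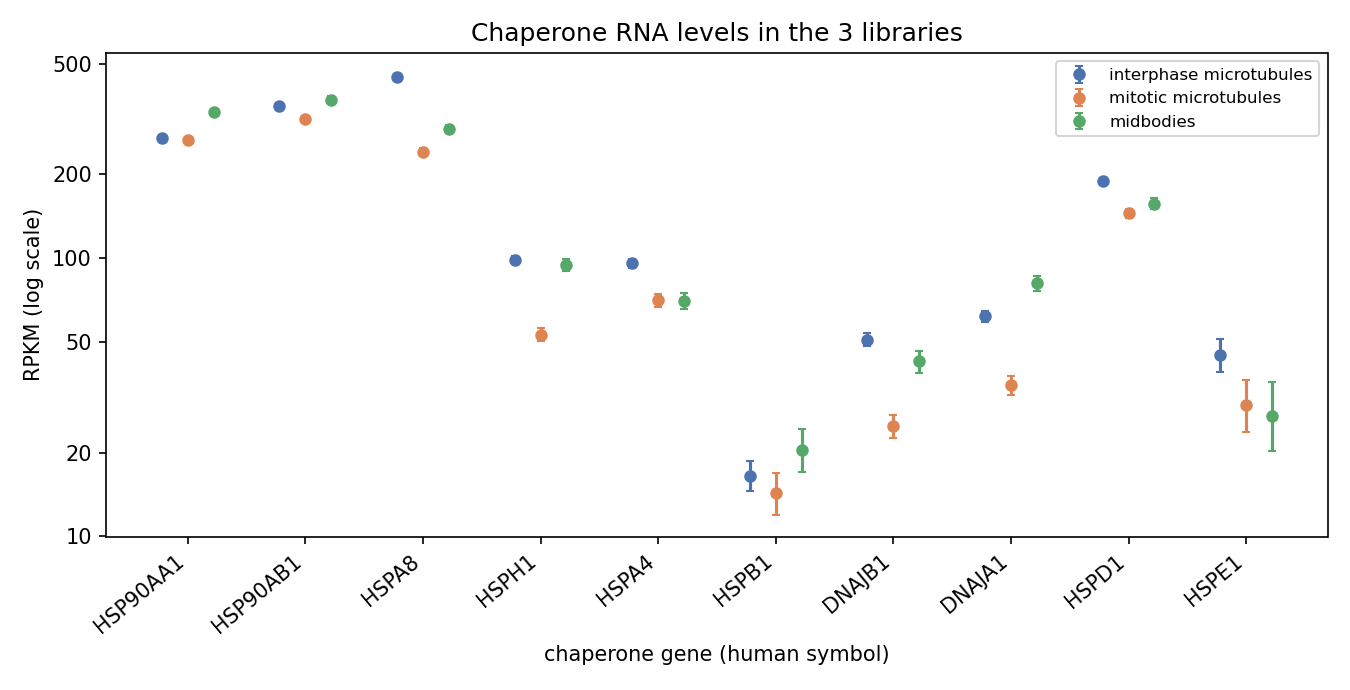
RNA level in RPKM (log axis) of the 10 chaperone genes, named along the horizontal axis, in interphase microtubules, mitotic microtubules and midbodies, 1 library each. Points are the deposited values and bars exact Poisson 95% counting intervals. Among these genes DNAJA1, DNAJB1 and HSPH1 show the deepest mitotic low point beside both neighbours, for DNAJA1 34.9 RPKM against 61.7 in interphase and 81.3 in midbodies.

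The Hsp90 genes were among the most abundant transcripts. HSP90AA1 (human protein P07900), the stress-inducible Hsp90 alpha, stood at 270 RPKM in interphase, 266 in mitotic and 334 in midbody preparations, which ranked it 59th, 72nd and 56th of all transcripts. HSP90AB1 (human protein P08238), the constitutive Hsp90 beta, stood at 353, 316 and 371 RPKM in interphase, mitotic and midbody order. Both were therefore highest in midbodies, and the interphase and mitotic levels of HSP90AA1 lay within counting error of each other. Midbodies exceeded mitotic microtubules by 1.25-fold for HSP90AA1 (1.21 to 1.30) and 1.17-fold for HSP90AB1 (1.13 to 1.22). They exceeded interphase by 1.24-fold (1.19 to 1.28) and 1.05-fold (1.02 to 1.09). The level of the alpha form relative to the beta form was 0.765 in interphase (0.744 to 0.786), 0.843 in mitotic (0.814 to 0.873) and 0.900 in midbody preparations (0.865 to 0.937). The interphase interval lies below the other intervals, while those of mitotic microtubules and midbodies overlap slightly, so the inducible form took a smaller part of Hsp90 RNA in interphase.

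HSPA8 (human protein P11142) followed another course. It was the most abundant member in interphase, ranking 8th of all transcripts at 448 RPKM, and had 241 RPKM in the mitotic and 291 RPKM in the midbody library. Mitotic microtubules had 0.538 of the interphase level (0.520 to 0.557) and midbodies 0.649 of it (0.624 to 0.674). Midbodies were 1.20-fold above mitotic microtubules (1.15 to 1.26). HSPA8 supplied 27.5% of the summed RPKM of the 10 genes in interphase, 20.2% in the mitotic and 19.5% in the midbody library, whereas the Hsp90 pair supplied 38.3%, 48.7% and 47.4%. The midbody to interphase log2 ratio of HSPA8, -0.62 on the log2(RPKM + 1) scale, just passed a 1.5-fold line but became -0.56 under median of ratios scaling and -0.58 under trimmed mean of M values scaling, short of it.

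Of the Hsp110 genes, whose proteins exchange the nucleotide of Hsp70, HSPH1 and HSPA4 had nearly equal levels in interphase and differed afterwards. HSPH1 (human protein Q92598) had 98.7 RPKM in interphase, 53.1 in mitotic and 94.5 in midbody preparations. Its midbody level was 1.78-fold the mitotic level (1.65 to 1.91) and 0.958 of the interphase level, an interval of 0.904 to 1.02 that includes equality. HSPA4 (human protein P34932) stood at 95.9, 70.6 and 70.1 RPKM in interphase, mitotic and midbody order. For HSPA4 the midbody to mitotic ratio was 0.993 (0.912 to 1.08), and the midbody to interphase ratio 0.730 (0.677 to 0.787). The level of HSPH1 relative to HSPA4 was thus 1.03 in interphase (0.981 to 1.08), 0.753 in mitotic (0.699 to 0.811) and 1.35 in midbody preparations (1.24 to 1.47).

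Both J protein genes were lower in mitotic than in interphase microtubules and higher in midbodies than in mitotic microtubules. DNAJA1 (human protein P31689), a farnesylated type I J protein, had 61.7 RPKM in interphase, 34.9 in mitotic and 81.3 in midbody preparations. Its midbody level was 2.33-fold the mitotic level (2.11 to 2.57), the highest such ratio of the 10 genes, and 1.32-fold the interphase level (1.22 to 1.42). DNAJB1 (human protein P25685), a type II J protein and a classic HSF1 target, had 51.0, 24.9 and 42.5 RPKM in interphase, mitotic and midbody order. Its midbody level was 1.71-fold the mitotic level (1.498 to 1.95) but 0.835 of the interphase level (0.751 to 0.927). Mitotic microtubules had 0.565 of the interphase level of DNAJA1 (0.517 to 0.618) and 0.488 of that of DNAJB1 (0.438 to 0.544).

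Set against HSPA8, the Hsp70 they serve, DNAJA1, HSPH1 and DNAJB1 had similar levels in interphase and mitotic preparations and higher ones in midbodies. The other Hsp110 gene, HSPA4, did not share this. Its mitotic to interphase ratio was 0.736, above the 0.538 of HSPA8, and its midbody to mitotic ratio was 0.993, below the 1.20 of HSPA8. DNAJA1 was at 0.138 of the HSPA8 level in interphase (0.131 to 0.145), 0.145 in mitotic (0.133 to 0.157) and 0.280 in midbody preparations (0.260 to 0.301). HSPH1 was at 0.220 in interphase (0.213 to 0.228), 0.220 in mitotic (0.207 to 0.234) and 0.325 in midbody preparations (0.306 to 0.346). DNAJB1 was at 0.114 in interphase (0.108 to 0.120), 0.103 in mitotic (0.0934 to 0.114) and 0.146 in midbody preparations (0.133 to 0.161). For all 3 ratios the midbody interval lay above the other intervals.

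HSPB1 (human protein P04792), a small heat shock protein that keeps unfolded proteins soluble without ATP, was the least abundant member in every library. It had 16.5 RPKM in interphase, 14.3 in mitotic and 20.4 in midbody preparations, from 249, 137 and 125 reads. Midbodies were 1.43-fold above mitotic microtubules (1.11 to 1.84), while their 1.24-fold excess over interphase (0.991 to 1.54) and the mitotic to interphase ratio of 0.865 (0.697 to 1.07) were within counting error. Its human match was the weakest of the 10, with a BLASTX E-value of 3e-23.

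The mitochondrial chaperonin genes differed less between midbodies and mitotic microtubules than the J protein genes did. HSPD1 (human protein P10809), the Hsp60 barrel, had 189 RPKM in interphase, 145 in mitotic and 157 in midbody preparations. Midbodies had 1.08-fold the mitotic level of HSPD1 (1.02 to 1.15) and 0.831 of the interphase level (0.787 to 0.877). HSPE1 (human protein P61604), the Hsp10 lid, had 44.9, 29.7 and 27.1 RPKM in interphase, mitotic and midbody order. The HSPE1 midbody to mitotic ratio of 0.920 (0.638 to 1.31) was within counting error, and midbodies had 0.608 of the interphase level (0.438 to 0.830). HSPD1 matched 2 transcripts and HSPE1 matched 3, and the reads of both genes were partly divided between transcripts, which the intervals do not cover. The other transcript matched to HSPD1 had 15.4 RPKM in interphase, 18.7 in mitotic and 14.3 in midbody preparations, with the mitotic library highest. With both rows added, HSPD1 had a midbody to mitotic log2 ratio of 0.07 in place of 0.12. Its mitotic to interphase log2 ratio was then -0.32 in place of -0.38. Counting intervals were not computed for added rows, and the orders given above use the kept row. The other 2 transcripts matched to HSPE1 had 39.8 and 18.5 RPKM in interphase, 31.1 and 16.9 in mitotic and 31.5 and 20.6 in midbody preparations. With all rows of a match added, the HSPE1 midbody to interphase log2 ratio was -0.38 in place of -0.71 and its midbody to mitotic log2 ratio was 0.03 in place of -0.13, so the size of its difference from interphase and the direction of its difference from mitotic microtubules depend on the rows used. The other 8 members had whole numbers of reads in all 3 libraries, to within 1e-06.

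**Figure D2:**
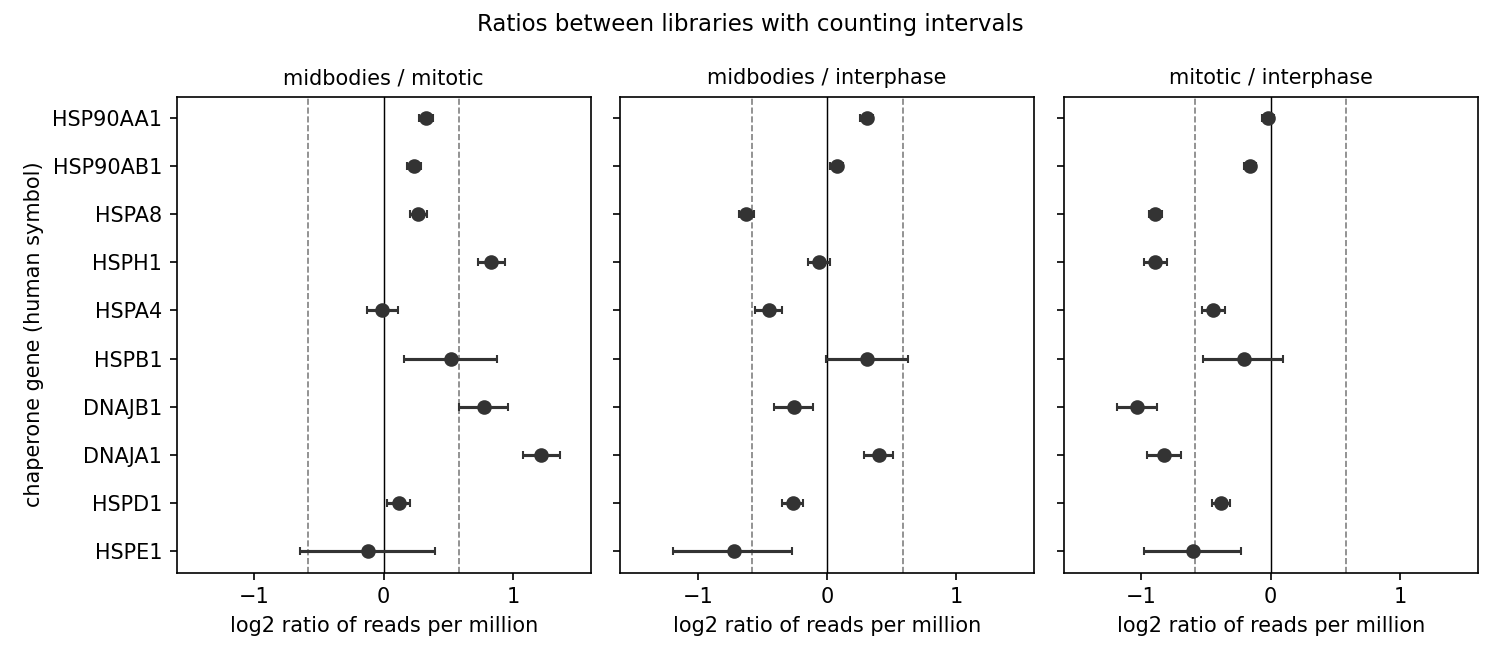
Ratios of reads over the library total between libraries (log2 axis) for the 10 chaperone genes, midbodies over mitotic, midbodies over interphase and mitotic over interphase from left to right. Bars are exact binomial 95% counting intervals and dashed lines mark 1.5-fold. DNAJA1 at 2.33-fold, HSPH1 at 1.78-fold and DNAJB1 at 1.71-fold lie past the upper line between midbodies and mitotic microtubules, and DNAJB1, HSPA8, HSPH1, DNAJA1 and HSPE1 lie near or past the lower line between mitotic and interphase microtubules.

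Counts against all transcripts were made on the log2(RPKM + 1) scale, and a gene was counted as higher or lower from 1.5-fold. Between midbodies and mitotic microtubules, 3 of the 10 chaperones were higher (DNAJA1, HSPH1 and DNAJB1) and 0 lower, where 7.11% of 13131 transcripts were higher and 8.56% lower. The members' median log2 ratio was 0.30, beside -0.03 over all transcripts, and 8 of the 10 were above 0. The exceptions, HSPA4 at -0.01 and HSPE1 at -0.13, were within counting error of 0, and HSPA4 turned to 0.00 under both other scalings. Only DNAJA1, at 1.20, passed 2-fold, as 2.09% of all transcripts did in that direction, and 1.8% did in the other. The counting interval lay above 1 for 8 members and below 1 for 0, where it lay above 1 for 21.3% of transcripts and below 1 for 24.5%, many of which had fewer reads and wider intervals.

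Between midbodies and interphase microtubules, 0 of the 10 were higher and 2 lower (HSPA8 and HSPE1), where 25.1% of 13059 transcripts were higher and 34.2% lower. The members' median was -0.16, beside -0.15 over all transcripts. Their log2 ratios spanned -0.71 to 0.39, and none reached 2-fold, which 14.7% of transcripts did upward and 20.8% downward. Those of all transcripts spanned -5.08 to 5.04, a range that also widens with their number and with low counts. Counting intervals lay above 1 for 3 members (HSP90AA1, HSP90AB1 and DNAJA1) and below 1 for 5, against 34.4% and 45.4% of transcripts, many again with wider intervals. By their median, chaperone RNAs were near the middle of the table in this comparison. With a filter of 10 RPKM, which all 10 members passed, the median of all transcripts was -0.23, somewhat below that of the members.

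Between mitotic and interphase microtubules, 0 of the 10 were higher and 4 lower (DNAJB1 at -1.00, HSPA8 at -0.89, HSPH1 at -0.88 and DNAJA1 at -0.81), where 26.7% of 13176 transcripts were higher and 33.8% lower. The count of lower members is near the share in the whole table. HSPE1, at -0.58, stood just inside the line, and DNAJB1 alone passed 2-fold, as 20.7% of transcripts did downward and 16.6% upward. Counting intervals lay below 1 for 8 members and above 1 for 0, against 46.4% and 36.9% of transcripts, many again with wider intervals. The members' median was -0.51, beside -0.13 over all transcripts. All 10 log2 ratios were below 0, although HSP90AA1, at -0.02, turned to 0.03 under median of ratios scaling and to 0.01 under trimmed mean of M values scaling. The 3 comparisons share libraries in pairs and are not independent of each other.

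**Figure D3:**
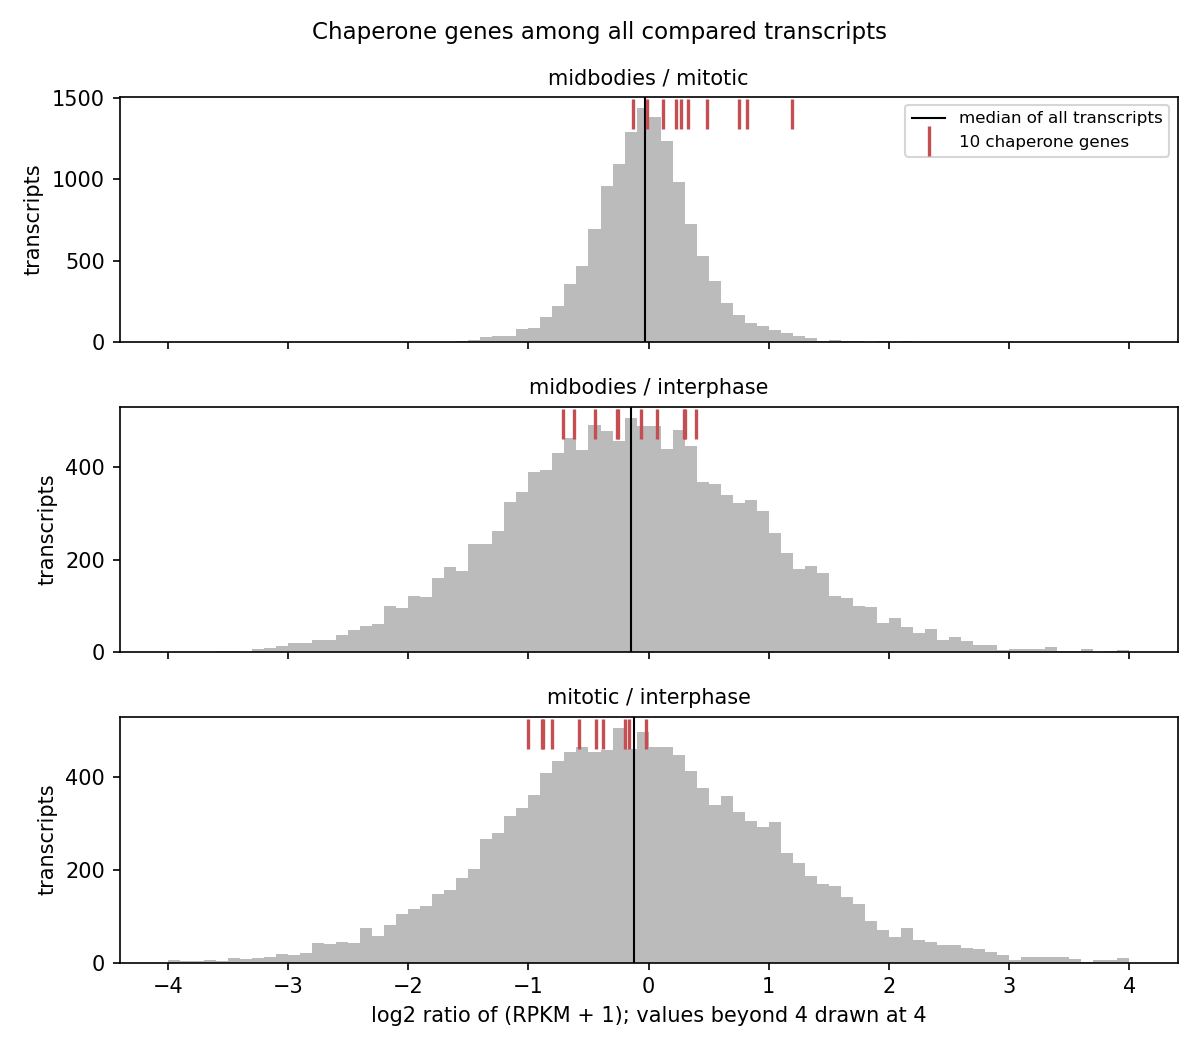
Number of transcripts (vertical axes) by log2 ratio of RPKM + 1 in bins of 0.1 (horizontal axis, values beyond 4 drawn at 4), for each comparison. Red ticks are the 10 chaperone genes and the black line is the median of all compared transcripts. The ticks spread about the median for midbodies over interphase, lie mostly above it for midbodies over mitotic microtubules (member median 0.30, all transcripts -0.03) and mostly below it for mitotic over interphase (-0.51 and -0.13).

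The wider chaperone network was read from 9 lists of partner genes, of which 66 of 71 genes had a matched transcript. Between midbodies and mitotic microtubules, 5 of the 63 partner genes past 1 RPKM were at least 1.5-fold higher and 2 lower, with a median log2 ratio of 0.03. Between midbodies and interphase, 7 of 63 were higher and 22 lower, with a median of -0.28. Between mitotic and interphase microtubules, 7 of 62 were higher and 22 lower, with a median of -0.34. Against interphase the counts of lower genes are close to the shares of all transcripts given above, 34.2% and 33.8%, and those of higher genes are below the 25.1% and 26.7% of all transcripts. Between midbodies and mitotic microtubules, 7.11% of all transcripts were higher and 8.56% lower.

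Among BAG proteins, which act on the Hsp70 ATPase, 2 of 5 were higher in midbodies than in mitotic microtubules, beside 7.11% of all transcripts. BAG3, a further HSF1 target that links Hsp70 to small heat shock proteins, had 70.4 RPKM in interphase, 41.4 in mitotic and 74.6 in midbody preparations. The midbody level of BAG3 was 1.80-fold the mitotic level (1.64 to 1.98), like that of HSPH1. BAG1 had 53.0, 14.3 and 23.0 RPKM in interphase, mitotic and midbody order, with log2 ratios of 0.65 for midbodies over mitotic microtubules and -1.17 for midbodies over interphase. Between mitotic and interphase microtubules, 4 of the 5 BAG genes were lower, beside 33.8% of all transcripts, with BAG1 at -1.82, BAG5 at -1.25, BAG3 at -0.75 and BAG2 at -0.69, and BAG4 was higher at 0.80.

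HSPB8, the small heat shock protein that binds BAG3, had the lowest mitotic to interphase log2 ratio of the partner genes, -2.18. It stood at 110 RPKM in interphase, 23.4 in mitotic and 49.7 in midbody preparations. Midbodies had 2.12-fold the mitotic level (1.84 to 2.44) and 0.454 of the interphase level (0.410 to 0.501). Of the other 4 genes placed in the small heat shock list, HSPB2 had 0 reads in every library, which allows up to 3 reads in each. CRYAB and HSPB6 stayed below 10 RPKM, and HSPB11 was at 0.05 between midbodies and mitotic microtubules.

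Of the 14 Hsp90 co-chaperone genes, 7 were lower and 1 higher in midbodies than in interphase microtubules, with a median of -0.62, beside 34.2% and 25.1% of all transcripts. In the mitotic library 6 were lower and 2 higher than in interphase, with a median of -0.43, beside 33.8% and 26.7%. Between midbodies and mitotic microtubules 1 was lower and 0 were higher, with a median of 0.03, beside 8.56% and 7.11%. The lower gene was FKBP5, an immunophilin induced by glucocorticoids, which had 55.3 RPKM in interphase, 28.1 in mitotic and 13.9 in midbody preparations. PPP5C, at -0.58, stood just inside the line, with midbodies at 0.657 of the mitotic level by reads (0.532 to 0.808). FKBP4, a related immunophilin, and CDC37, which loads kinases onto Hsp90, were lower in mitotic than in interphase microtubules, at -1.22 and -1.05 on the log2 scale, and PPID, a cyclophilin of the Hsp90 complex, was higher at 1.14.

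The other J proteins took several courses. Of 9 measured between midbodies and mitotic microtubules, 1 was higher and 0 lower, beside 7.11% and 8.56% of all transcripts, with a median of -0.03, and the higher gene, DNAJA4, stood at 3.09 RPKM in midbodies against 0.984 in the mitotic library. DNAJC2, a J protein of the ribosome, had 109 RPKM in interphase, 90.4 in mitotic and 115 in midbody preparations, the same order as DNAJA1. The midbody to mitotic ratio of DNAJC2 was 1.27 (1.18 to 1.38). Its midbody to interphase ratio of 1.06 (0.987 to 1.13) was within counting error, unlike that of DNAJA1. DNAJB4, a close relative of DNAJB1, had 18.3 RPKM in interphase, 50.1 in mitotic and 33.3 in midbody preparations, which made the mitotic library its highest. Midbodies had 0.665 of the mitotic DNAJB4 level (0.587 to 0.751), which on the log2(RPKM + 1) scale of the counts was -0.57, just inside the line. The inducible Hsp70 gene HSPA1A, a hallmark of the heat shock response, stayed below 1 RPKM in all 3 libraries, with part of its reads divided between transcripts. HSPA2, another Hsp70, had 17.4 RPKM in interphase, 5.97 in mitotic and 5.48 in midbody preparations.

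The heat shock factor genes did not follow the chaperones. HSF1 had 27.4 RPKM in interphase, 33.3 in mitotic and 34.1 in midbody preparations, in the most abundant of 3 matched transcripts that divided reads. HSF2 had 17.8, 29.2 and 26.7 RPKM in the same order. Midbody to mitotic ratios of 1.02 for HSF1 (0.896 to 1.16) and 0.915 for HSF2 (0.809 to 1.03) were within counting error, and both genes were higher in midbodies than in interphase, by 1.24-fold (1.09 to 1.40) and 1.502-fold (1.33 to 1.70).

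Mitochondrial partners and chaperonin subunits were read in the same way. Of 12 mitochondrial chaperone and protease genes, 0 were higher and 0 lower in midbodies than in mitotic microtubules, with a median of 0.01, and of 8 subunits of TRiC, the cytosolic chaperonin that folds actin and tubulin, also 0 and 0, with a median of 0.12. With 7.11% of all transcripts higher and 8.56% lower in this comparison, lists of this size hold few such genes in any case. HSPA9, the mitochondrial Hsp70, had 192 RPKM in interphase, 114 in mitotic and 116 in midbody preparations. Its exchange factor GRPEL1 and J protein DNAJA3 had midbody to interphase log2 ratios of -1.08 and -1.62. The DNAJA3 value is from the most abundant of 3 matched transcripts that divided reads. HTRA2, of the same list, went the other way, at 0.72. Of the 12 mitochondrial genes, 5 were lower and 1 higher in midbodies than in interphase, beside 34.2% and 25.1% of all transcripts. Among TRiC subunits the midbody to interphase log2 ratio ran from -0.82 for CCT7 to 0.74 for CCT3. Prefoldin, which hands clients to TRiC, had a midbody to interphase median of 0.34 over 6 genes, from PFDN2 at -0.55 to PFDN6 at 1.24. Of these 6 genes, 1 was higher in midbodies and 0 lower, beside 25.1% and 34.2% of all transcripts.

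**Figure D4:**
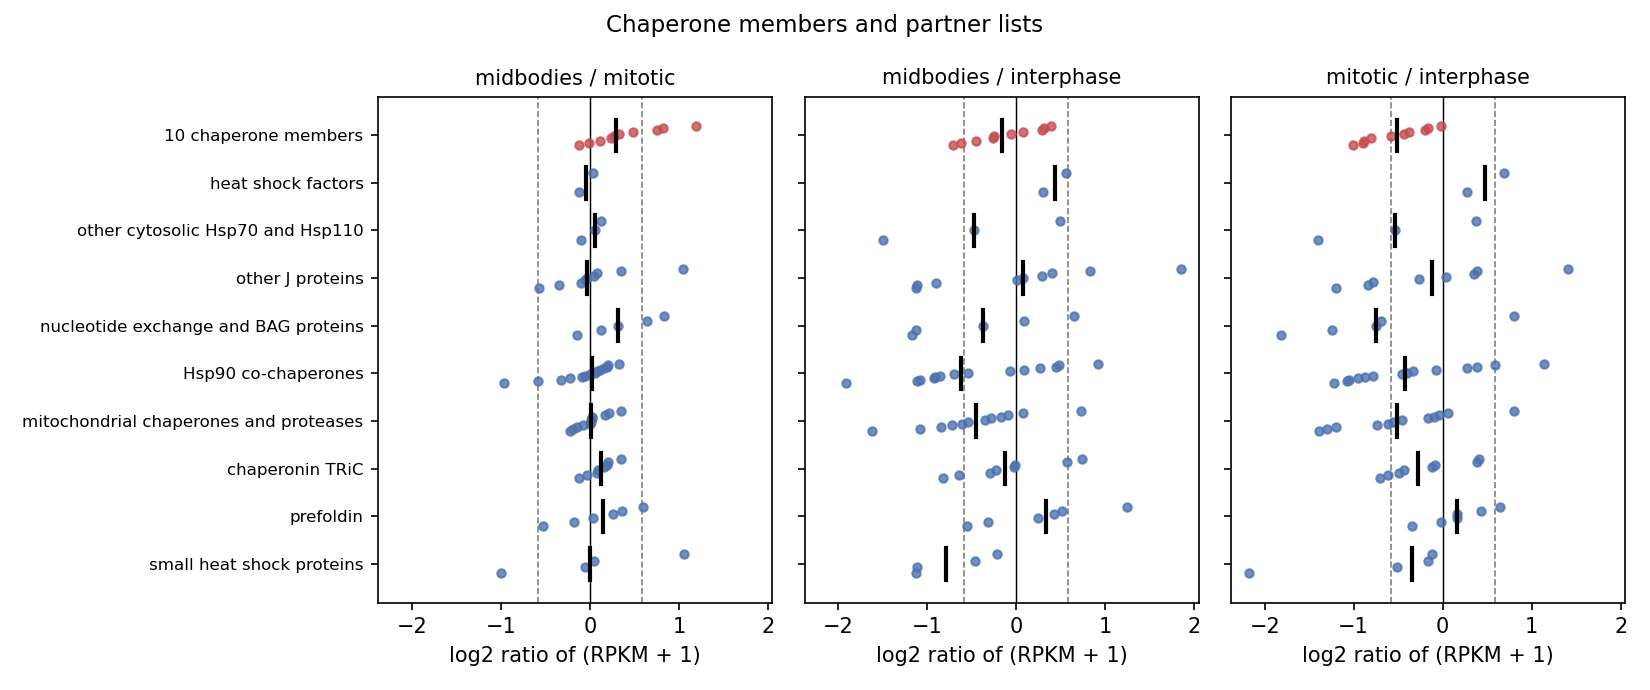
Log2 ratio of RPKM + 1 (horizontal axis) for the 10 chaperone members (red) and the genes of 9 partner lists (blue), 1 point per gene at 1 RPKM or more in a compared library. Black bars are medians, dashed lines mark 1.5-fold, and the vertical offset within a row only separates points. Between midbodies and mitotic microtubules the members' median of 0.30 and that of the BAG list, 0.32, lie to the right of the other lists, the next being 0.15 for prefoldin.

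Likeness of profiles was measured among the members and partner genes at 10 RPKM or more in at least 1 library, as the Euclidean distance between centred log2(RPKM + 1) values over 3 libraries, with 68 candidates for each member. The gene nearest to HSPH1 was BAG3, at a distance of 0.11, and BAG3 was also nearest to DNAJA1, at 0.28. DNAJB1 was nearest to HSPH1, at 0.14, and HSPB1 to HSP90AA1, at 0.14. HSPD1 was nearest to CLPP, a mitochondrial protease subunit, at 0.05, HSPA8 to AHSA1, an activator of the Hsp90 ATPase, at 0.13, and HSP90AB1 to the co-chaperone UNC45A, at 0.07. For mitochondrial HSPE1 the nearest gene was the TRiC subunit CCT4, at 0.07. HSPB11 was nearest to HSPA4, at 0.06, and the prefoldin gene PFDN1 to HSP90AA1, at 0.13. All candidates were members or partner genes, so a nearest gene could come only from these lists. With 3 libraries such distances describe these preparations only.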

How the data were processed

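Poly-A RNA was prepared with Illumina TruSeq RNA v2 chemistry, per the labels' protocols. Per the file headers, the authors deposited reads per RefSeq transcript (estimated counts, fractional for 14.7% to 16.8% of transcripts), their RPKM and the best human protein by BLASTX. Which aligner, counter, build and strand setting were used is not given in the sources used here, so overlapping genes and close paralogs may share reads. The Metaphase columns were taken as the sample titled Mitosis. Reads were rounded for Clopper-Pearson intervals. Log2 ratios used RPKM + 1 over transcripts at 1 RPKM or more in a compared library. With 1 library per group no test was possible.

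Members and lists were chosen with earlier results of these data known. Named genes were all members and, per list and comparison, up to 4 genes with the largest absolute ratio at 10 RPKM or more. Nearest profiles and preset markers were named too. HSPA9, DNAJA4, CRYAB, HSPB2, HSPB6 and HSPA1A were named after their values were seen. Alternatives were other pseudocounts, filters and scalings, summed rows and a 2-fold line. The interval and ratio code was tested on simulated data. Python 3.11.15, numpy 2.4.6, scipy 1.17.1 and pandas 2.3.3 were used. No protein, promoter or transcript sequence was used here.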

Additional observations from a re-analysis of the deposited data

How the results depend on the processing

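Of the alternatives (pseudocounts of 0.1 and 5, no filter, a filter of 10 RPKM, 2 other scalings, summed rows of 1 human match, and a 2-fold line), a 2-fold line left 1 member (3 at 1.5-fold) higher in midbodies than in the mitotic library, 0 lower in midbodies than in interphase (2 at 1.5-fold) and 1 lower in mitotic than in interphase microtubules (4 at 1.5-fold). The count of 2 lower in midbodies than in interphase became 1 under median of ratios scaling and 1 under trimmed mean of M values scaling, where HSPA8 missed the line, and 1 with summed rows, where HSPE1 missed it. The other counts stayed within 1.5 times their values, and no member past 1.5-fold changed direction. The members' medians ranged from 0.29 to 0.31 for midbodies over mitotic microtubules, -0.16 to -0.10 for midbodies over interphase and -0.52 to -0.42 for mitotic over interphase. Without the filter, the median of all transcripts shifted by 0.15 for midbodies over interphase and 0.13 for mitotic over interphase. A filter of 10 RPKM shifted it by -0.10 for mitotic over interphase and -0.08 for midbodies over interphase. Depth limits HSPE1 and HSPB1 most, with 50.7 and 125 midbody reads. No paired analysis was possible because each group has 1 library.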
